A study of Rattus norvegicus with 288 samples.

Results

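The 9 genes described here come from families that hold feedback inhibitors of the ERK kinase pathway. They are 6 dual-specificity phosphatases (Dusp1, Dusp4, Dusp5, Dusp6, Dusp10 and Dusp14) and 3 Sprouty genes (Spry1, Spry2 and Spry4). They were picked by name, with earlier results of these data known, out of 14218 genes on a whole-genome rat array. Their 12 probe sets, the groups of probes that report 1 transcript, were reduced to 1 per gene by taking the brightest in each tissue. Dusp1 had 2 probe sets, Dusp6 had 3 and the other genes 1 each, and the same probe set was the brightest in every tissue.

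The rats were 96 male Sprague-Dawley animals aged 8 weeks, and each gave a heart, a kidney and a liver array, 288 in all, in 72 groups of 4. Every rat carried a femoral vein catheter and received an infusion of D5W, a dextrose solution, or of oxaliplatin at 15 mg per kg in it, a platinum compound that forms adducts with DNA. An oral dose followed: sterile water, sunitinib in water (5 mg per kg), a vehicle of propylene glycol, polyethylene glycol and Pluronic F68 (called F68 from here on), or sorafenib in this vehicle (25 mg per kg). Tissue was taken at 1, 6 and 24 h, the replicates were separate rats, and water and sunitinib rats were dosed on another day than F68 and sorafenib rats. Whole pieces of tissue were used, so fewer cells of a type and less RNA per cell cannot be told apart in any value below.

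Growth factors activate ERK through receptor tyrosine kinases, RAS, RAF and MEK. ERK then switches on genes whose products shut it off again. Dusp5 (in the nucleus) and Dusp6 (in the cytoplasm) remove the activating phosphates from ERK itself, and Dusp4 is a nuclear relative. Dusp1 acts on p38, JNK and ERK and is also an early stress and glucocorticoid response gene, Dusp10 acts mainly on p38 and JNK, and Dusp14 is a small phosphatase of the same family. Sprouty proteins act higher up, between the receptors and RAF. Sunitinib inhibits the VEGF, PDGF and KIT receptor kinases, and sorafenib inhibits RAF kinases as well as VEGF and PDGF receptors, so both drugs act above ERK.

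The promoters of the genes that moved most are shown first, because 2 of them hold short motifs that few promoters hold. Of the 9 genes, 8 were found in a RefSeq promoter table of the rat assembly GRCr8, 6 of them with 1 promoter. The lines give the 200 bases before the start that this table uses, 5′ to 3′, for Dusp1 (chr10:17184653-17184852, plus strand), Dusp5 (chr1:262543574-262543773, plus strand) and Dusp6 (chr7:35979404-35979603, plus strand). Capitals mark the cAMP response element TGACGTCA, its half-site TGACG on either strand, and CArG boxes, the sites that serum response factor binds.
Dusp1: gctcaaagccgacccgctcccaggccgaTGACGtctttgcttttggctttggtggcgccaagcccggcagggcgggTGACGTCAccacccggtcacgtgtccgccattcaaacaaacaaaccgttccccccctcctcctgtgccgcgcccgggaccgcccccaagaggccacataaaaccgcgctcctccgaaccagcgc
Dusp5: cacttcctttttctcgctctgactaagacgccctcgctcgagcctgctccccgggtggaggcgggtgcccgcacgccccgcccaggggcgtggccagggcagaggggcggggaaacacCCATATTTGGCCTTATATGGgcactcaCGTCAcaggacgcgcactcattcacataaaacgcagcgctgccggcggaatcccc
Dusp6: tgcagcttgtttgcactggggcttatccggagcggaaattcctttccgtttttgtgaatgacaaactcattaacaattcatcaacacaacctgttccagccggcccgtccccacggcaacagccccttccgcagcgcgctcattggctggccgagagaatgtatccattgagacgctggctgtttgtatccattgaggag
The Dusp1 and Dusp5 windows end at the base before the gene's annotated span, but the Dusp6 span begins at position 35979502, inside its window, so the printed Dusp6 bases are not all upstream of the gene.
Dusp1 held TGACGTCA at -124 to -117 from the start and a further half-site at -172 to -168. In the same window TGACGTCA was found in 1.46% and a half-site, which is part of it, in 15.9% of 33469 promoters. Dusp5 held a pair of CArG boxes side by side, at -82 to -73 and -72 to -63, and a half-site at -55 to -51. A CArG box was found in 1.16% of promoters. None of these motifs was found in the Dusp6 window, nor were the AP-1 site TGANTCA (4.97% of promoters) or the Ets site CCGGAAG (6.69%, either strand) in any of these 3 windows. Dusp14, whose window is not printed, held an AP-1 site at -89 to -83 and a half-site at -77 to -73. These are matches of letters, and no binding was measured.

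Levels are given as deposited, on a log2 scale on which 1 unit is a factor of 2, and each is a level of its own probe set that cannot be set against another gene's. The sources do not say if the 3 tissues were normalized as one set, so tissue levels are a description. The median over all probe sets of an array was 7.32 to 7.81 in kidney, 6.63 to 6.69 in heart and 6.66 to 6.78 in liver. Kidney arrays thus stood higher in general, and the levels below are given without a correction for this. Dusp1 had a median of 10.31 in heart, 9.67 in kidney and 10.94 in liver, and the ranges over arrays overlapped between all tissues (9.81 to 10.87, 8.94 to 11.34 and 8.35 to 12.30). Dusp6 had medians of 8.80, 10.64 and 10.47, and every kidney array (lowest 9.98) lay above every heart array (highest 9.92). Spry2 had medians of 8.55 in heart and 8.43 in kidney but 5.65 in liver, where the highest array (6.19) lay below the lowest of the other tissues (7.93). Spry1 was lowest in liver too (median 7.89, against 9.31 in heart and 8.94 in kidney), and every liver array (highest 8.56) lay below every heart array (lowest 8.88). Dusp5, Dusp14 and Spry4 had their highest medians in kidney (8.40, 8.49 and 8.89). Dusp4 and Dusp10 were dim everywhere, with medians of 5.57 to 6.13.

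The 9 genes did not vary alike. The spread of the 24 group means was widest for Dusp1 in liver (1.85) and kidney (1.71), for Dusp6 in liver (1.80) and heart (1.20), and for Dusp5 in kidney (1.05). The SD within groups was large in liver for Dusp1 (0.60) and Dusp6 (0.49) and was 0.32 and 0.26 for these genes in kidney. It lay between 0.11 and 0.32 for all 9 genes in heart. Over the 24 group means Dusp6 and Spry4 ran together in heart (Pearson r = 0.80), kidney (0.74) and liver (0.61), and Dusp1 and Dusp5 ran together in kidney (r = 0.76) but not in heart (0.13) or liver (-0.05). These r describe group means that share rats and days, and carry no test.

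A gene entered the tests of a tissue where its level was over 6 on at least 4 arrays, which kept all 9 genes in heart and liver and 8 in kidney. Dusp10 was over 6 on 1 kidney array only and with this filter was not tested there. In liver, Spry2 was over 6 on just 4 arrays. Differences were tested with limma over all genes of the tissue, and a gene is called changed at a Benjamini-Hochberg adjusted p under 0.05. A log2 difference is given ± its standard error.

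A pair of arrays from the rats given D5W then sorafenib at 24 h was left out, which left 3 rats in each of those groups. The array labelled liver had a median of 13.09 over the kidney markers and 5.77 over the liver markers. The array labelled kidney had the kidney gene Umod at 6.40, against 14.48 to 14.51 in the other rats of its group. Over the arrays used, the median level of the heart markers was 14.49 in heart, of the kidney markers 13.09 in kidney and of the liver markers 14.76 in liver, and these medians were 5.10 to 6.07 in the other tissues. On 1 kidney array of the rats given D5W then sorafenib at 1 h the heart markers stood at 8.95, and its part in the sorafenib values of that group was not tested. The difference between the 3′ and 5′ control probe sets of beta-actin, which grows as transcripts degrade, was between 0.34 and 0.65 on kidney arrays, between 0.64 and 0.98 on liver arrays and between 0.13 and 0.81 on heart arrays. There it was 0.71 to 0.81 in the group given D5W then water at 24 h and 0.49 to 0.77 in the group given D5W then sorafenib at 6 h, against a heart median of 0.37.

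After oxaliplatin, 4 of the 8 genes tested rose in kidney at 1 h: Dusp1, the stress-responsive phosphatase, Dusp5 and Dusp6, which act on ERK, and Spry4. None fell. Oxaliplatin and D5W rats were compared over both oral vehicles, 8 rats against 8, and 9.41% of the 12310 genes tested were called in that comparison, and 4.45% of the genes tested were called upward. The median difference was 0.15 over the 8 genes and -0.02 over all genes.

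Dusp1 stood at 10.25, 10.43, 10.30 and 10.32 in the oxaliplatin rats given water and at 9.63, 9.48, 9.15 and 8.996 in their D5W controls. With F68 it was 11.34, 10.50, 11.24 and 10.67 after oxaliplatin and 9.65, 10.32, 10.18 and 10.47 after D5W. Within each vehicle the groups did not overlap, but the F68 controls lay above the water controls, so the pooled ranges met. The difference was 0.90 ± 0.16 (1.86-fold, adjusted p = 2.23e-05, limma), and the second, dimmer Dusp1 probe set gave 1.20 ± 0.16 (adjusted p = 1.57e-08).

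Dusp5 was 8.30, 9.21, 8.84 and 8.70 after oxaliplatin and 8.25, 8.00, 8.40 and 7.97 after D5W in the water rats. In the F68 rats it was 9.58, 9.34, 9.001 and 8.91 against 8.42, 8.11, 8.26 and 8.26. A single oxaliplatin rat, at 8.30, lay within the range of the D5W rats. The rise was 0.78 ± 0.10 (1.71-fold, adjusted p = 2.28e-08).

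Dusp6 rose by 0.47 ± 0.12 (1.39-fold, adjusted p = 0.00625), and its values are given by vehicle. In the F68 rats it was 11.69, 11.09, 11.25 and 10.94 after oxaliplatin and 10.42, 10.51, 10.56 and 10.21 after D5W, a difference of 0.82 ± 0.18 with no overlap. In the water rats it was 10.57, 10.68, 10.68 and 10.64 against 10.82, 10.54, 10.64 and 10.06, a difference of 0.13 ± 0.18 with overlapping groups (adjusted p = 0.88). The difference between both vehicles was 0.69 ± 0.25 and was not called (adjusted p = 1.00, unadjusted p = 0.00681). The other Dusp6 probe sets gave 0.36 ± 0.13 (adjusted p = 0.0559) and, for the noisiest of them, -0.11 ± 0.48, so the call rests on the brightest. Spry4 rose by 0.21 ± 0.06 (1.16-fold, adjusted p = 0.00802), from 8.78 to 9.06 after D5W (median 8.86, n = 8) to 8.81 to 9.45 after oxaliplatin (median 9.12, n = 8). These ranges overlapped, and without replicate 1 of the rats given oxaliplatin then F68 the difference was 0.17 (adjusted p = 0.0534).

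**Figure D1:**
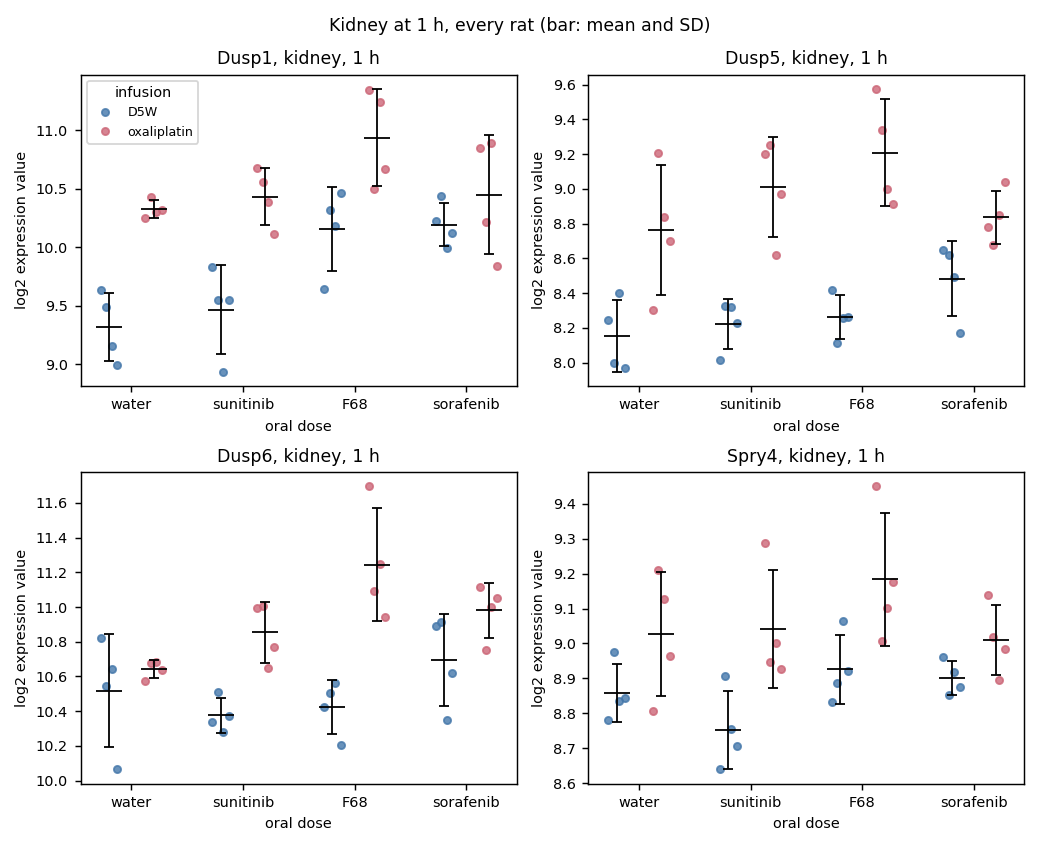
Log2 expression value (vertical axis) of 4 feedback genes in kidney at 1 h for every rat, by oral dose (horizontal axis) and infusion (blue D5W, red oxaliplatin), with group mean and SD. Dusp1 was higher after oxaliplatin in every rat given water, sunitinib or F68 than in its own D5W group, while the sorafenib groups overlapped.

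The rats given an oral drug were not used in that comparison and hold the same contrast once more, 4 rats against 4. Among sunitinib rats Dusp1 was 10.67, 10.55, 10.38 and 10.11 after oxaliplatin and 9.83, 9.55, 8.94 and 9.55 after D5W, a rise of 0.96 ± 0.22 (adjusted p = 0.00167). Dusp5 rose by 0.79 ± 0.15 (adjusted p = 5.72e-05) and Spry4 by 0.29 ± 0.08 (adjusted p = 0.0111), and Dusp6 differed by 0.48 ± 0.18 (adjusted p = 0.0581). In that comparison 13.1% of genes were called. The authors name kidney data of this oxaliplatin then sunitinib group as possible outliers and ask for caution. The part of such data in the differences and calls of the sunitinib rats was not tested. Among sorafenib rats none of the 8 was called, and 3.8% of genes were. There Dusp1 differed by 0.26 ± 0.22, Dusp5 by 0.35 ± 0.15 and Dusp6 by 0.29 ± 0.18, and Dusp5 had an unadjusted p = 0.0179, the only one under 0.05. The oxaliplatin effect in sorafenib rats minus that in F68 rats was -0.53 ± 0.32 for Dusp1, -0.59 ± 0.21 for Dusp5 and -0.53 ± 0.25 for Dusp6. None of these was called (adjusted p = 0.865, 0.562 and 0.724, limma). The D5W then sorafenib group holds the kidney array with raised heart markers. With water alone (3.64% of genes) Dusp1 and Dusp5 were called, and with F68 alone (2.37%) Dusp1, Dusp5 and Dusp6 were. Both drug comparisons were added after the data were seen.

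By 6 h, when 20.6% of kidney genes were called, and by 24 h, when 7.8% were, none of the 8 genes was called (2 and 1 with an unadjusted p under 0.05, limma). At 6 h Dusp1 differed by -0.33 ± 0.16 and Dusp5 by 0.23 ± 0.10. The 1 h effect exceeded the 6 h effect by 1.22 ± 0.22 for Dusp1, 0.55 ± 0.15 for Dusp5, 0.64 ± 0.18 for Dusp6 and 0.28 ± 0.08 for Spry4, each called (7.99% of genes). It exceeded the 24 h effect by 0.75 for Dusp1 and 0.68 for Dusp5 (9.36%). For Dusp6, at 0.29 ± 0.12 at 24 h, the difference between 1 and 24 h was not called.

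Other parts of the pathway in kidney at 1 h were read from lists, in the comparison that called 9.41% of all genes and 4.45% upward. The lists, too, were chosen with earlier results of these data known. Of 13 ERK-induced output genes 6 rose and 1 fell: Myc, a driver of growth, by 1.92 ± 0.13, and the immediate early genes Egr1 by 1.18 ± 0.24 and Ier2 by 0.73 ± 0.08. Of 12 growth factor ligands 3 rose and 1 fell, with the EGF family ligands Hbegf at 2.13 ± 0.09 and Areg at 1.40 ± 0.29, while Fgf9 fell by 0.32 ± 0.08. Of 7 other feedback inhibitors 2 rose, Errfi1, which inhibits the EGF receptor, by 0.50 ± 0.14 and Dusp8, a JNK phosphatase, by 0.46 ± 0.08. Of 11 glucocorticoid-induced genes 8 rose and 0 fell, with Gadd45b at 1.15 ± 0.16, Cebpb at 1.03 ± 0.13 and the clock gene Per1 at 0.91 ± 0.14. In the RAS to ERK cascade itself 1 of 12 genes was called, the RAS activator Sos2, which fell by 0.15 ± 0.05, and of 9 receptors that the oral drugs inhibit and of 7 JNK and p38 kinases none was. Of the marker lists, 0 of 8 macrophage, 0 of 9 endothelial and 0 of 6 fibroblast genes were called, and 2 of 9 kidney markers fell. Over the 24 kidney group means the genes most like Dusp1 were Csrnp1 (r = 0.93), Ppp1r15a and Wsb1 (both 0.92).

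In heart and liver fewer members were called after oxaliplatin. At 1 h in liver (3.46% of genes called) Spry4 was the 1 gene called of 9. It was 7.79, 7.61, 7.79 and 7.78 after oxaliplatin and 7.28, 7.53, 7.47 and 7.20 after D5W in the water rats. In the F68 rats it was 7.91, 7.58, 7.63 and 7.99 against 7.55, 7.47, 7.43 and 7.61, so the groups overlapped there and not in the water rats. The rise was 0.32 ± 0.07 (1.25-fold, adjusted p = 0.00159). Among the sunitinib rats, where 1.54% of genes were called, Spry4 rose by 0.52 ± 0.10 (adjusted p = 0.000307) and Spry1 by 0.49 ± 0.11 (adjusted p = 0.00674). Spry4 was not called in the F68 rats alone (0.26 ± 0.10, adjusted p = 0.362, limma) or in the sorafenib rats alone. Its oxaliplatin effect in sorafenib rats minus that in F68 rats was -0.14 ± 0.14 and was not called.

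Dusp14 rose in heart at 6 h, where only 0.866% of genes were called. It was 8.37, 8.08, 8.45 and 8.53 after oxaliplatin against 7.69, 7.74, 7.82 and 7.87 after D5W in the water rats. In the F68 rats it was 7.99, 8.33, 8.30 and 8.55 against 8.01, 7.56, 8.13 and 8.07, with overlap. The rise was 0.46 ± 0.09 (1.38-fold, adjusted p = 0.00157). Among sorafenib rats Dusp14 rose by 0.58 ± 0.13 (adjusted p = 0.000184), Dusp10 rose by 0.33 ± 0.08, Dusp4 rose by 0.19 ± 0.08 and Spry1 fell by 0.33 ± 0.12, with 33.3% of genes called and a control group whose actin values stood apart. Among sunitinib rats (0.15% called) no member was called and Dusp14 differed by 0.13 ± 0.13 (adjusted p = 0.918). In liver at 6 h (10.4% called) Dusp14 rose by 0.25 ± 0.08 (adjusted p = 0.0271) and Spry1 fell by 0.24 ± 0.08 (adjusted p = 0.0414). Both liver calls were lost in the water rats and in the F68 rats alone and when any of 5 (Dusp14) or 10 (Spry1) single arrays was left out, with adjusted p up to 0.0816 and 0.107.

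No member was called after oxaliplatin in heart at 1 h (1.23% of genes, 4 members with an unadjusted p under 0.05) or 24 h (19.2%, 0 members), or in liver at 24 h (6.42%, 2 members). Spry1 in heart at 1 h was 0.28 ± 0.08 (adjusted p = 0.0693), and its effect exceeded that at 24 h by 0.35 ± 0.12 (14.7% of genes called). The 24 h effect takes in the heart group given D5W then water, whose actin values stood apart, and its part was not tested. In liver the Spry1 effect at 1 h exceeded that at 6 h by 0.45 ± 0.11 (1.29%).

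**Figure D2:**
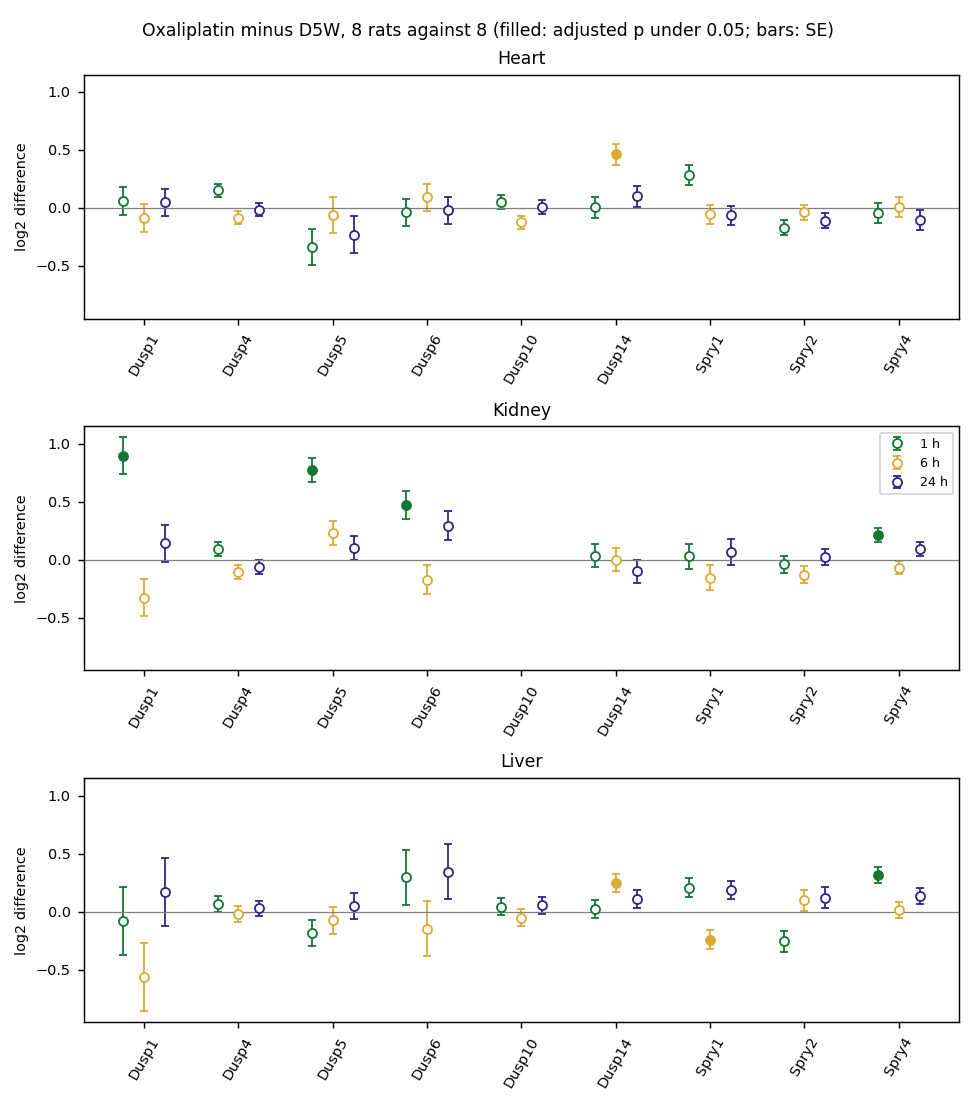
Log2 difference between oxaliplatin and D5W rats (vertical axis, bars ± SE) for each gene (horizontal axis) in heart, kidney and liver at 1 h (green), 6 h (yellow) and 24 h (blue), over both oral vehicles with 8 rats against 8. Filled points were called at an adjusted p under 0.05: 4 in kidney at 1 h, 1 in heart and 3 in liver.

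The tissues were compared in 1 model of all groups over 10541 genes, which held 8 of the 9 members. The Dusp5 effect at 1 h was larger in kidney than in liver by 0.96 ± 0.18 (1.54% of genes called) and than in heart by 1.11 ± 0.18 (1.89%). The Spry4 effect at 1 h was larger in liver than in heart by 0.36 ± 0.10 (2.24%), and the Dusp14 effect at 6 h was smaller in kidney than in heart by 0.46 ± 0.13 (4.39%). For Dusp1 the kidney effect at 1 h exceeded that in liver by 0.98 ± 0.29, which was not called (adjusted p = 0.0577). The labels name no rat, and this model took arrays as independent although the 3 tissues came from the same rats. Each of 96 position codes in the array titles, taken with the time, stood on 3 arrays of 1 treatment. With these codes as a block, an alternative added after the data were seen, the 8 called differences of members between tissues, 4 with oxaliplatin and 4 with sorafenib, kept their call. That of Dusp1 was then called too (0.98 ± 0.28, adjusted p = 0.0290), as was Dusp4 with sorafenib at 6 h, higher in liver than in heart by 0.31 ± 0.12 (adjusted p = 0.0417).

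Sorafenib was followed by lower Dusp6, the cytoplasmic ERK phosphatase, in heart. The comparison with F68 was run apart in D5W and in oxaliplatin rats, 4 against 4 in each. Dusp6 fell in both at 6 h, in the oxaliplatin rats at 1 h and in the D5W rats at 24 h, and Spry4 fell in both at 6 h. Taken over both infusions (8 against 8, a comparison added after the data were seen), Dusp6 fell at all 3 times, by 0.52 ± 0.12, 0.69 ± 0.12 and 0.61 ± 0.12 (1.43-, 1.61- and 1.52-fold), with adjusted p = 0.00277, 1.86e-06 and 0.000111. The share of heart genes called in these 3 comparisons was 7.88%, 40.2% and 13.5%.

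At 1 h Dusp6 was 8.54, 8.36, 8.35 and 8.27 in the sorafenib rats and 8.89, 8.72, 8.94 and 8.65 in the F68 rats after D5W. After oxaliplatin it was 8.21, 8.52, 8.67 and 8.31 against 9.28, 9.30, 8.72 and 8.88. The sorafenib rats were lower without overlap within each infusion. The differences were -0.42 ± 0.16 after D5W (adjusted p = 0.0748, with 12.2% of genes called) and -0.61 ± 0.16 after oxaliplatin (adjusted p = 0.0288, 2.15%). The latter call was lost without replicate 1 or 2 of the F68 rats or replicate 1, 3 or 4 of the sorafenib rats (adjusted p up to 0.123).

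At 6 h it was 7.75, 8.19, 8.39 and 8.21 against 8.87, 8.98, 8.70 and 8.83 after D5W. After oxaliplatin it was 8.09, 8.39, 7.98 and 7.99 against 8.79, 8.83, 8.68 and 8.82. All 8 sorafenib rats lay below all 8 F68 rats. The falls were 0.71 ± 0.16 (1.64-fold, adjusted p = 0.000327, 41.9% of genes called) and 0.67 ± 0.16 (1.59-fold, adjusted p = 0.00746, 7.57%).

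At 24 h Dusp6 was 8.34, 8.14, 8.51 and 8.57 against 8.96, 9.07, 9.07 and 9.15 after D5W. After oxaliplatin it was 8.53, 8.31, 8.18 and 8.72 against 8.94, 9.01, 9.06 and 8.88, and again no sorafenib rat reached any F68 rat. The differences were -0.67 ± 0.16 (1.59-fold, adjusted p = 0.00528, 7.05% of genes called) and -0.54 ± 0.16 (adjusted p = 0.0754, 1.72%). A second Dusp6 probe set gave -0.58 ± 0.16, -0.42 ± 0.16 and -0.54 ± 0.16 in the D5W rats at the 3 times, each called. The noisiest one gave -0.60, -0.50 and -0.32 with SE 0.41, none called, and in the oxaliplatin rats 0.04, -0.25 and 0.14. There the second probe set gave -0.37 ± 0.16 (adjusted p = 0.234), -0.52 ± 0.16 (0.0378, called) and -0.48 ± 0.16 (0.132), so the 1 h call after oxaliplatin rests on the brightest. With the mean of all probe sets neither the 1 h nor the 6 h call held in the oxaliplatin rats.

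Spry4, which restrains signalling from the receptors, was 8.05, 7.75, 7.56 and 7.86 with sorafenib and 8.26, 8.43, 8.29 and 8.07 with F68 after D5W at 6 h. After oxaliplatin it was 7.61, 7.64, 8.02 and 7.74 against 8.41, 8.29, 8.00 and 7.97. The groups met only after oxaliplatin, where the highest sorafenib rat (8.02) lay among the F68 rats. The falls were 0.45 ± 0.12 (adjusted p = 0.00205) and 0.41 ± 0.12 (adjusted p = 0.0261), and the latter call was lost without replicate 1 or 2 of the F68 rats or replicate 1, 2 or 4 of the sorafenib rats (adjusted p up to 0.196). Over both infusions Spry4 fell by 0.43 ± 0.09 at 6 h (adjusted p = 4.37e-05) and 0.31 ± 0.09 at 24 h (adjusted p = 0.0115), and differed by -0.26 ± 0.09 at 1 h (adjusted p = 0.0509).

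**Figure D3:**
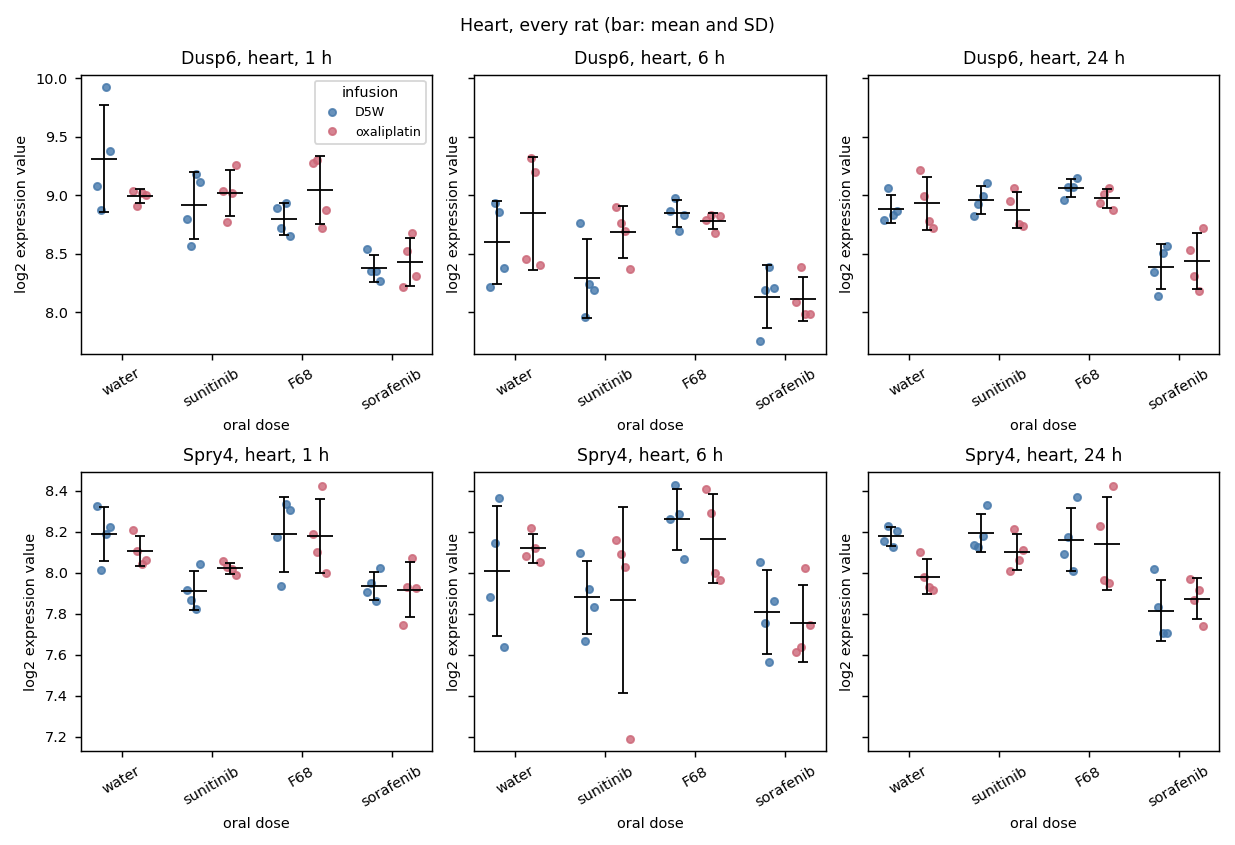
Log2 expression value (vertical axis) of Dusp6 and Spry4 in heart for every rat at 1, 6 and 24 h, by oral dose (horizontal axis) and infusion (blue D5W, red oxaliplatin), with group mean and SD. At 6 and 24 h all sorafenib rats lie below all F68 rats in Dusp6.

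The other members were called in heart at 1 or 6 h only. Of these, Dusp10 and Spry1 moved in opposite directions at 1 and 6 h. In the D5W rats at 1 h Dusp5, the nuclear ERK phosphatase, fell by 0.63 ± 0.22 (adjusted p = 0.0475) and Dusp10 rose by 0.24 ± 0.08 (adjusted p = 0.0387), and each call was lost when any of 8 and 7 single arrays was left out. Over both infusions Dusp1 fell by 0.37 ± 0.12, Dusp5 by 0.49 ± 0.16 and Spry1 by 0.27 ± 0.08 at 1 h. In the D5W rats at 6 h, 7 of the 9 genes were called, in a comparison that called 41.9% of all genes. Spry1 rose by 0.31 ± 0.12 and Spry2 by 0.34 ± 0.09, and Dusp1 fell by 0.40 ± 0.17, Dusp10 by 0.33 ± 0.08 and Dusp4 by 0.20 ± 0.08, beside Dusp6 and Spry4. The calls of Dusp1, Dusp4 and Spry1 were lost when any of 6, 5 and 4 single arrays of these groups was left out (adjusted p up to 0.194, 0.119 and 0.157). In the oxaliplatin rats at that time Dusp6 and Spry4 alone were called. Over both infusions at 6 h, Spry1 rose by 0.24 ± 0.08 (adjusted p = 0.0166, limma) and Spry2 by 0.26 ± 0.07 (adjusted p = 0.00121). Dusp1, Dusp4 and Dusp10 were not called in that comparison, which includes the D5W rats. The actin difference was 0.49 to 0.77 in the sorafenib group of the D5W rats and 0.20 to 0.33 in its F68 group, but 0.22 to 0.34 and 0.22 to 0.32 in the oxaliplatin rats, and its part in these calls was not tested. The effect on Dusp10 differed between the infusions (moderated F test over 3 times, adjusted p = 0.00495, 18.5% of genes called): it was higher after oxaliplatin by 0.50 ± 0.12 at 6 h.

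The shares of all genes called with sorafenib in heart were 41.9% at 6 h and 7.05% at 24 h in the D5W rats, and 7.57% and 1.72% in the oxaliplatin rats. Of 14 ERK-induced output genes 8 fell in heart at 6 h in the D5W rats, among them Egr1 (by 0.87 ± 0.29), Junb (0.62 ± 0.12) and the cyclin Ccnd1 (0.61 ± 0.14). In the oxaliplatin rats 3 fell, Ccnd1 by 0.45 ± 0.14 and Junb by 0.39 ± 0.12 among them, and 1 rose, Phlda1, by 0.59 ± 0.18. At 24 h 3 fell and 1 rose in the D5W rats, Egr1 falling by 1.31 ± 0.29, Ccnd1 by 0.59 ± 0.14 and Ier2 by 0.45 ± 0.09, and none was called in the oxaliplatin rats. Of the 7 receptors tested, Kdr, a VEGF receptor, fell by 0.47 ± 0.13 and 0.52 ± 0.13 at 6 h and by 0.96 ± 0.13 and 0.70 ± 0.13 at 24 h. The CSF1 receptor Csf1r fell by 0.84 ± 0.13 and 1.06 ± 0.13 at 24 h. The RAS to ERK cascade had 4 genes up and 3 down of 11 at 6 h in the D5W rats, led by the RAS inhibitor Rasa1 at 1.38 ± 0.07, and none called in the oxaliplatin rats. The MAP kinase kinase Map2k6, which acts on p38, rose by 0.74 ± 0.10 and 0.57 ± 0.10 at 6 h.

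Macrophage markers moved with sorafenib in heart, where 12.2%, 41.9% and 7.05% of all genes were called at 1, 6 and 24 h in the D5W rats and 2.15%, 7.57% and 1.72% in the oxaliplatin rats. Of 9, 0 rose and 6 fell at 6 h in the D5W rats and 4 in the oxaliplatin rats, with median differences of -0.64 and -0.46, and at 24 h 6 and 9 fell, with medians of -1.27 and -1.33. Their median level at 24 h was 7.54 to 8.37 in the sorafenib rats and 8.87 to 9.46 in the F68 rats after D5W. At 1 h 1 and 0 of 9 fell. Endothelial markers did not move one way, with 3 up and 2 down of 9 at 6 h and 2 up and 4 down at 24 h in the D5W rats. The part of these cells in the Dusp6 and Spry4 values was not tested. Over the 24 heart group means, Actg1 and Tmem204 (both r = 0.89) and B3gnt2 (0.88) were the genes most like Dusp6.

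Sorafenib and sunitinib differ in what they inhibit, sorafenib being the one that also acts on RAF. Their effects were set side by side against their own vehicles in D5W rats. The doses differ (25 and 5 mg per kg), as do the vehicles and dosing days. The effects differed over the 3 times in heart for Dusp6 (adjusted p = 0.0199), Spry2 (0.00567) and Dusp10 (0.000456), with 41.9% of genes called. At 24 h the Dusp6 difference was lower with sorafenib by 0.75 ± 0.23. The 24 h comparison in heart takes in the D5W then water group whose actin values stood apart. The test over the 3 times also takes in the D5W then sorafenib group at 6 h, whose actin values did so too. The part of these groups was not tested. In kidney no member was called (0.00812% of genes, 0 of 8 at an unadjusted p under 0.05), and in liver Dusp4 was over the 3 times (adjusted p = 0.0494, 44.5%), though at no single time. At 24 h alone in liver, Dusp6 was lower with sorafenib by 1.45 ± 0.50 (adjusted p = 0.0110) and Spry1 by 0.45 ± 0.17 (adjusted p = 0.0187), both called there but not over the 3 times.

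After sunitinib no member was called in any of 18 comparisons, of 156 tests in all, of which 11 had an unadjusted p under 0.05 by limma. The smallest adjusted p was 0.107, for Dusp6 in heart at 1 h in the D5W rats. There it was 8.80, 8.56, 9.18 and 9.11 with sunitinib and 9.08, 8.87, 9.92 and 9.37 with water, a difference of -0.40 (95% interval -0.73 to -0.07). The groups overlapped. On the second Dusp6 probe set this difference was -0.77 ± 0.16 and was called (adjusted p = 0.00161), and in the oxaliplatin rats it was 0.03 on the brightest and 0.02 on the second. Among heart genes 32.9% were called at 1 or more times in the D5W rats and 0.00884% in the oxaliplatin rats, the former including the 24 h water group whose actin values stood apart. The shares were 0.0244% and 0.244% in kidney and 0.964% and 0% in liver.

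**Figure D4:**
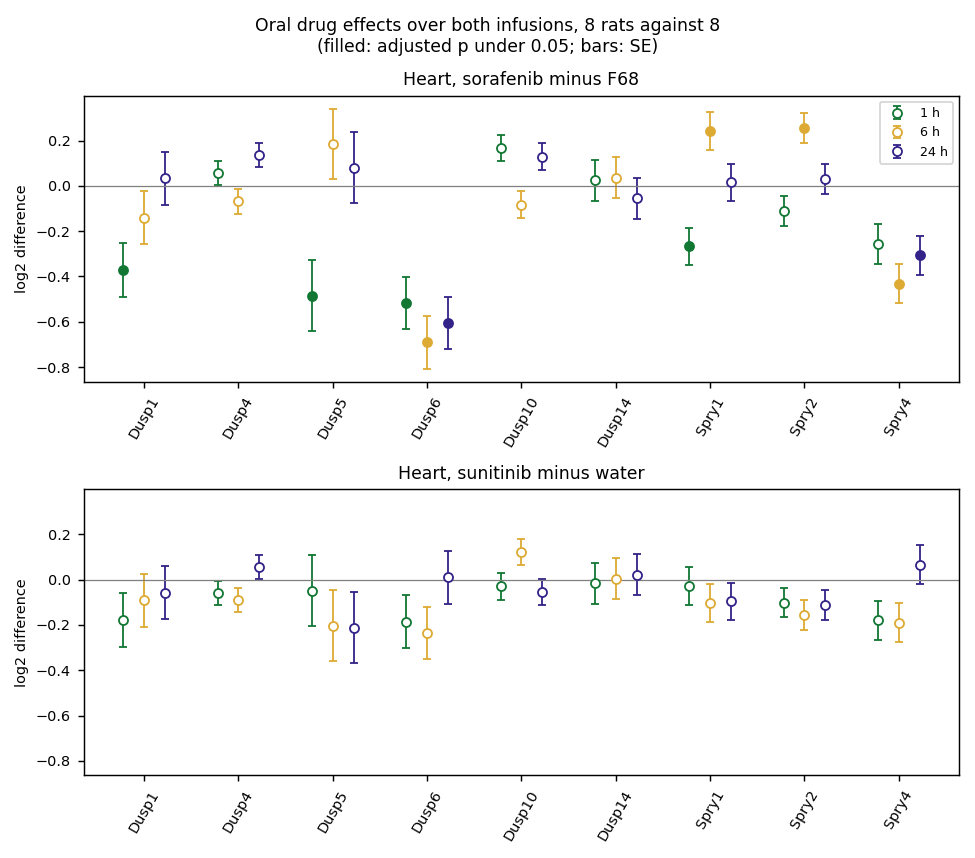
Log2 difference in heart (vertical axis, bars ± SE) of sorafenib against F68 and of sunitinib against water, over both infusions with 8 rats against 8, for each gene (horizontal axis) at 1 h (green), 6 h (yellow) and 24 h (blue). Filled points were called, among them Dusp6 at all 3 times with sorafenib, and no point was filled with sunitinib.

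In kidney sorafenib was followed by no call among the 8 genes at any time, in D5W rats (0.26% of genes called at 1 or more times) or oxaliplatin rats (0.552%). Of these 48 tests 7 had an unadjusted p under 0.05, the smallest adjusted p was 0.302, and the differences ran from -0.49 to 0.42. The last is Dusp6 at 6 h in the oxaliplatin rats (0.42 ± 0.18, adjusted p = 0.340), which on the second Dusp6 probe set was 0.71 ± 0.18 and called (adjusted p = 0.0387). The Dusp6 effect of the D5W rats at 24 h was higher in kidney than in liver by 1.44 ± 0.37, and that on Dusp5 by 0.66 ± 0.28 (57% of genes called). At 6 h the Spry4 effect was higher in kidney than in heart by 0.43 ± 0.14 (12.8%) and in liver than in heart by 0.40 ± 0.14 (19.2%).

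In liver the early change after sorafenib was in Spry4. At 1 h it was 7.30, 7.27, 7.29 and 6.96 with sorafenib and 7.55, 7.47, 7.43 and 7.61 with F68 after D5W. After oxaliplatin it was 7.24, 7.29, 7.36 and 7.43 against 7.91, 7.58, 7.63 and 7.99. All 8 sorafenib rats lay below all 8 F68 rats, with the closest pair at 7.43 after rounding. The differences were -0.31 ± 0.10 (adjusted p = 0.179, with 0.0689% of genes called) and -0.45 ± 0.10 (adjusted p = 0.0178, 0.189%), and over both infusions 0.38 ± 0.07 lower (1.30-fold, adjusted p = 0.000868, 2.92%). The call in the oxaliplatin rats was lost when any of 4 single arrays was left out (adjusted p up to 0.122). At 6 h no member was called, with none at an unadjusted p under 0.05, and 0.0344% and 0.207% of genes were called in D5W and oxaliplatin rats.

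At 24 h Dusp6 was 9.73, 9.06 and 9.70 in the 3 D5W rats given sorafenib and 9.71, 10.89, 10.97 and 11.82 in those given F68. The lowest F68 rat lay among the sorafenib rats. The fall was 1.35 ± 0.37 (2.55-fold, adjusted p = 0.000927), in a comparison in which 67.3% of genes were called. The 3 sorafenib arrays belong to the group for which the authors ask for further quality checks. The second Dusp6 probe set gave -0.89 ± 0.37 (adjusted p = 0.0307) and the noisiest -0.0059 ± 0.75 (adjusted p = 0.995), and the call was lost with the latter and with the mean of all probe sets. Dusp10 rose by 0.33 ± 0.11. It was not called with array weights, with a second quantile normalization, with all arrays kept as labelled, or without replicate 3 of the sorafenib group (0.19, adjusted p = 0.18). After oxaliplatin Dusp6 was 11.44, 10.07, 10.92 and 11.43 against 11.95, 11.13, 10.58 and 11.19, a difference of -0.25 ± 0.34 (1.38% of genes called, no member, and none at an unadjusted p under 0.05). The F test of a change between infusions called no member in liver (22.2% of genes) or kidney (0.0162%), with 0 and 1 members at an unadjusted p under 0.05. Over both infusions the liver share was 64.5%. In the D5W sorafenib rats all 9 macrophage markers fell (median -0.76) and the kidney list stood at 6.27 to 6.65 against 5.91 to 6.13. For sunitinib the same F test called no member (17.2% of genes in heart, 0% in kidney and liver), with 0, 0 and 2 members at an unadjusted p under 0.05.

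**Figure D5:**
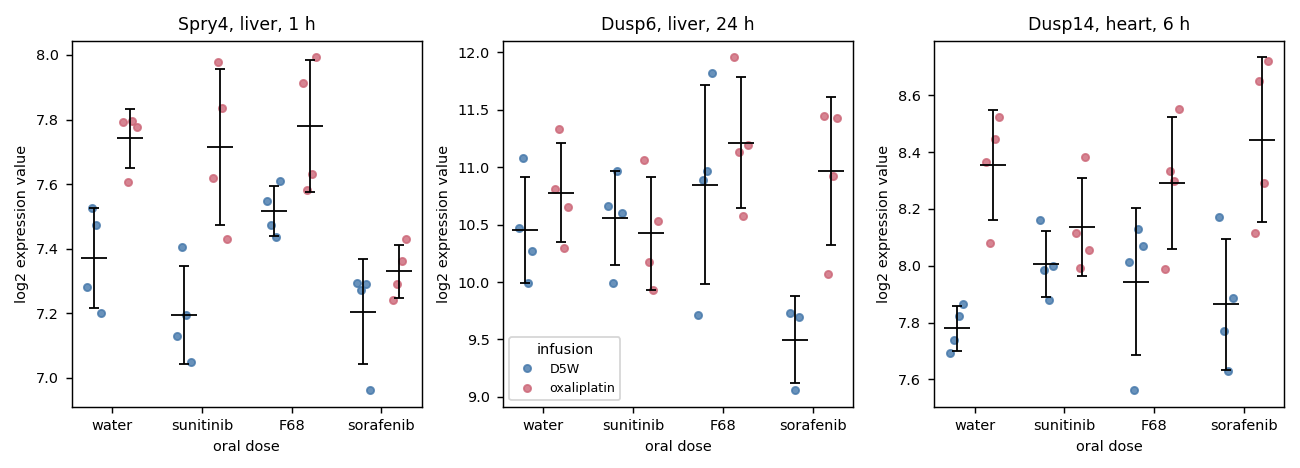
Log2 expression value (vertical axis) of Spry4 in liver at 1 h, Dusp6 in liver at 24 h and Dusp14 in heart at 6 h for every rat, by oral dose (horizontal axis) and infusion (blue D5W, red oxaliplatin), with group mean and SD. The sorafenib group after D5W holds 3 rats in the middle panel, at 9.06 to 9.73.

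The vehicles differed as well, with vehicle and dosing day not to be told apart. In D5W rats Dusp1 in kidney at 1 h was higher with F68 than with water by 0.84 ± 0.22. In heart Dusp6 at 1 h was lower with F68 by 0.51 ± 0.16 and Spry1 at 24 h by 0.35 ± 0.12. The actin values of the 24 h water group in heart stood apart, and its part in the Spry1 difference was not tested. The F test over the 3 times called Dusp1 in kidney (adjusted p = 0.0406, 7.41% of genes), Dusp6 and Spry1 in heart (0.0300 and 0.0494, 27.6%) and no member in liver (0.938%, 0 at an unadjusted p under 0.05).

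Levels also changed with time in the D5W rats given a vehicle (8 against 8). In liver Dusp6 was lower at 6 than at 1 h by 0.81 ± 0.24 (adjusted p = 0.0178, 11.3% of genes called), with means of 10.02 and 10.83. In heart Dusp6 was lower at 6 h by 0.34 ± 0.12 and Dusp4 higher by 0.16 ± 0.05 (36.8%), and Spry1 was higher at 24 than at 1 h by 0.20 ± 0.08 (49.2%). By vehicle, the Spry1 means at 24 and 1 h were 9.57 and 9.20 in water rats and 9.22 and 9.19 in F68 rats. The 24 h water group in heart had actin values that stood apart, and its part was not tested. No member was called in kidney (1.98% at 6 h and 3.4% at 24 h, 1 member at an unadjusted p under 0.05 at each) or in liver at 24 h (2.03%, 1 member). Titles of the 24 h arrays carry other codes than those of 1 and 6 h, and the labels do not say what the codes stand for. Time and whatever these codes mark cannot be told apart there. Over the 24 liver group means the genes most like Dusp1, the member with the widest range, were Ltc4s (r = 0.77), Gcgr (0.75) and Zswim3 (0.71).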

How the data were processed

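RNA of heart, kidney and liver was hybridised to Affymetrix Rat Genome 230 2.0 arrays. The authors summarised the arrays by RMA (version not given in the sources used here) and deposited log2 values, which were used as deposited. Of 31099 probe sets, 20832 had 1 gene symbol in the platform annotation, and they covered 14218 genes. The brightest probe set stood for a gene in each tissue. A gene was tested where its level was over 6 on at least 4 arrays, which left 11317 genes in heart, 12310 in kidney and 11619 in liver. limma 3.58.1 in R 4.3.3 fitted the 24 group means of a tissue, with Benjamini-Hochberg adjustment over all genes tested. The fit was tested on simulated data. The 9 genes and the gene lists were chosen with earlier results of these data known. All 9 genes are named, with up to 3 called genes of a pathway list by size of difference, and in each tissue the 3 genes most like the member with the widest range. Comparisons within sunitinib or sorafenib rats and over both infusions were added after the data were seen. No pair of arrays held identical values, and the number of arrays limits the precision. Alternatives covered the filter, normalization, array weights, probe sets, variance model and arrays or groups left out.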

Additional observations from a re-analysis of the deposited data

Results flagged for a closer look

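Dixon's gap test sets the gap to the nearest value against the range of the group. By it a single rat stood apart in 2 of 61 groups checked, where chance gives about 1 in 20. Dusp5 in heart at 1 h was 8.11 in 1 rat given D5W then F68, against 7.98 in the other three. Spry4 in liver at 1 h was 7.61 in 1 rat given oxaliplatin then water, against 7.78 to 7.79. These gaps are small: the SD within groups was 0.32 for Dusp5 in heart and 0.14 for Spry4 in liver.

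Effects that differed between times, tissues or infusions by a test of the difference were these. In kidney the oxaliplatin effect at 1 h exceeded that at 6 h for Dusp1 (1.22), Dusp5 (0.55), Dusp6 (0.64) and Spry4 (0.28), and that at 24 h for Dusp1 (0.75) and Dusp5 (0.68). For Spry1 it exceeded that at 24 h in heart (0.35) and that at 6 h in liver (0.45). At 24 h the heart group given D5W then water had actin values that stood apart. Between tissues, the oxaliplatin effect on Dusp5 at 1 h was larger in kidney than in liver (0.96) and heart (1.11), on Spry4 at 1 h larger in liver than in heart (0.36), and on Dusp14 at 6 h the kidney minus heart difference was -0.46. The sorafenib effect in D5W rats on Spry4 at 6 h was higher in kidney (0.43) and liver (0.40) than in heart, and at 24 h that on Dusp5 (0.66) and Dusp6 (1.44) was higher in kidney than in liver. The sorafenib effect on Dusp10 in heart at 6 h was higher in oxaliplatin than in D5W rats by 0.50.

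Probe sets not used for the gene's level passed the test in 4 comparisons where the brightest did not. The second Dusp1 probe set gave -0.85 in heart with sorafenib at 1 h in oxaliplatin rats. The second Dusp6 probe set gave -0.58 with sorafenib and -0.77 with sunitinib in heart at 1 h in D5W rats, and 0.71 in kidney with sorafenib at 6 h in oxaliplatin rats.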

How the results depend on the processing

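Of the 24 member results called, 193 of their values under other settings kept direction and call, 59 kept direction but not the call and 2 reversed, both with the noisiest Dusp6 probe set: 0.045 in heart with sorafenib at 1 h in oxaliplatin rats and -0.11 in kidney with oxaliplatin at 1 h. The count of members called after oxaliplatin in heart was 1. It was 0 in F68 rats alone and in sunitinib rats alone, 4 in sorafenib rats alone, and 2 with array weights, with groups of 1 time only and with a second quantile normalization. In kidney it was 4, with 0 in sorafenib rats alone, 2 in water rats alone and at most 5. With no filter on dim genes Dusp10 was called in kidney at 1 h (0.34 ± 0.08, adjusted p = 0.00468, limma). In liver the count after oxaliplatin was 3, with 0 in F68 rats alone and 1 in water rats alone or with all arrays as labelled. After sorafenib the liver count was 3 and became 5 with arrays centred on their median. After sunitinib the heart count was 0 and became 1 with groups of 1 time only and with the mean of all probe sets. Leaving out 1 array at a time gave 1 to 2 (heart), 3 to 5 (kidney) and 1 to 3 (liver) calls for oxaliplatin. It gave 10 to 14, 0 and 2 to 5 for sorafenib and 0 to 1, 0 to 1 and 0 for sunitinib, and 12 of the 24 results lost their call without some array. The cause was not tested. Dusp4, Dusp10 and, in liver, Spry2 lay near background, which limits what their values can show. No paired analysis was possible within a tissue because each rat is in 1 group. Between tissues, with array position codes as a replicate block, the member calls went from 4 to 5 for oxaliplatin and from 4 to 5 for sorafenib.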
